A study of Drosophila melanogaster with 42 samples.

Results

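Of 491 candidate regulatory regions of the Drosophila melanogaster genome that were assayed for enhancer activity in whole embryos, 6 carry the name of a gene of muscle differentiation, myoblast fusion or muscle attachment. The rule that picks them reads only their identifiers and takes the regions named for Mef2, nau, kon, rst or sns or for the CG numbers of these genes. Mef2_29 spans dm3 2R 5830342 to 5831294, nau_a_4 spans 3R 19540662 to 19541717 and nau_Dn_2 spans 3R 19544182 to 19545261. The other 3 are rst_8 at X 2941103 to 2942116, sns_6 at 2R 4744958 to 4745964 and CG10275_32, named by the locus tag of kon, at 2L 18503162 to 18504141. A name records the gene that a region was listed under. Whether each region lies in an exon, an intron or between genes was not analysed here.

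In the assay, embryos were the offspring of males from a pool of transgenic flies, each with a candidate region placed to drive GFP, and females with a CD2 transgene expressed in 1 cell type. After a collection of 2 to 2.5 h at 25 °C the embryos developed at 18 °C for another 9 to 10 h, and their cells were then sorted on CD2 and GFP. The inserted regions were amplified from genomic DNA, so that the share of a region among the reads of a library measures the share of cells that carried it, and a region active in a population is enriched in GFP+ cells over input cells not selected on GFP. The CD2 drivers are named twi, mef2 and duf in the labels, after twist, a mesoderm transcription factor gene, Mef2, and dumbfounded (kirre), a founder cell adhesion gene. GFP+ cells comprised twi CD2+ cells (3 libraries), twi CD2- cells (3), mef2 CD2+ cells (1), mef2 CD2- cells (3), duf CD2+ cells (1) and duf CD2- cells (6). Inputs were twi CD2+ cells (3) and twi CD2- cells (3), mef2 CD2- cells in small numbers (5 libraries of 20048 to 32326 cells, set against mef2 CD2+ GFP+ cells) and in large numbers (3 of 200000 cells), and duf CD2- cells in small numbers (5 of 39668 cells, set against duf CD2+ GFP+ cells) and in large numbers (6 of 200000 cells). The sign of CD2 is missing from the titles of the small duf inputs, and their other labels give it as CD2-. The single GFP+ libraries of mef2 CD2+ (16163 cells) and duf CD2+ cells (20015 cells) are labelled as pooled. By the protocol, stored extracts of a sample type were combined and divided into 5 portions for PCR, and no label ties replicates to separate crosses, so p-values measure only the spread between libraries, which may be technical. The libraries hold DNA and no RNA, so no marker gene could check the sort.

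Somatic muscles of the fly embryo form when founder cells, each with the identity of 1 future muscle, fuse with fusion-competent myoblasts. Mef2 encodes a MADS-box transcription factor required for muscle differentiation, and nautilus (nau) encodes the fly MyoD family factor, which is expressed in a subset of founder cells. roughest (rst) and sticks and stones (sns) encode immunoglobulin-domain adhesion proteins that bring founder cells and fusion-competent myoblasts together, rst acting in founder cells beside kirre and sns in fusion-competent myoblasts. kon-tiki (kon) encodes a transmembrane protein that growing myotubes need to reach and attach to their tendon cells.

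Libraries held between 15601849 and 30671353 reads, and levels are given as CPM, the reads of a region scaled to a library total of 1000000. The floor set for a region with 0 reads was 3 reads, or 0.0978 to 0.192 CPM. Since these are PCR reads without molecular identifiers, counting error is all that the intervals and the floor cover. A twi or mef2 library held 93 to 193 regions with 100 reads or more, and a duf library 273 to 409. GFP+ libraries also came from other cell numbers than their inputs, for example from 36206 to 55331 cells in duf CD2- GFP+ cells against 200000 in their input, and the part of cell number in the results was not tested. The 6 regions are 953 to 1080 bp long, with a GC content of 37.9% in nau_Dn_2 to 49.7% in sns_6 (median over all regions 42.3%).

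The 6 regions fell into a group of 3 that were present with every driver and a group of 3 found with duf alone. Mef2_29 and nau_Dn_2 had 0 reads in all 24 twi and mef2 libraries together, out of 462437935 reads, which allows a level of up to 0.00649 CPM. sns_6 had 3 reads there, 1 each in 3 libraries. In the 18 duf libraries Mef2_29 had 196825 reads, sns_6 777777 and nau_Dn_2 9558. nau_a_4, rst_8 and CG10275_32 had at least 100 reads in 40, 34 and 37 of all 42 libraries. This split was common among all regions, of which 214 of 491 reached 100 reads in some duf input and in no twi or mef2 input. Labels do not say whether the drivers were crossed to the same fly pool, and driver, pool and sequencing run cannot be told apart here. The 3 regions absent with twi and mef2 could therefore be compared between GFP+ cells and input for duf only.

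**Figure D1:**
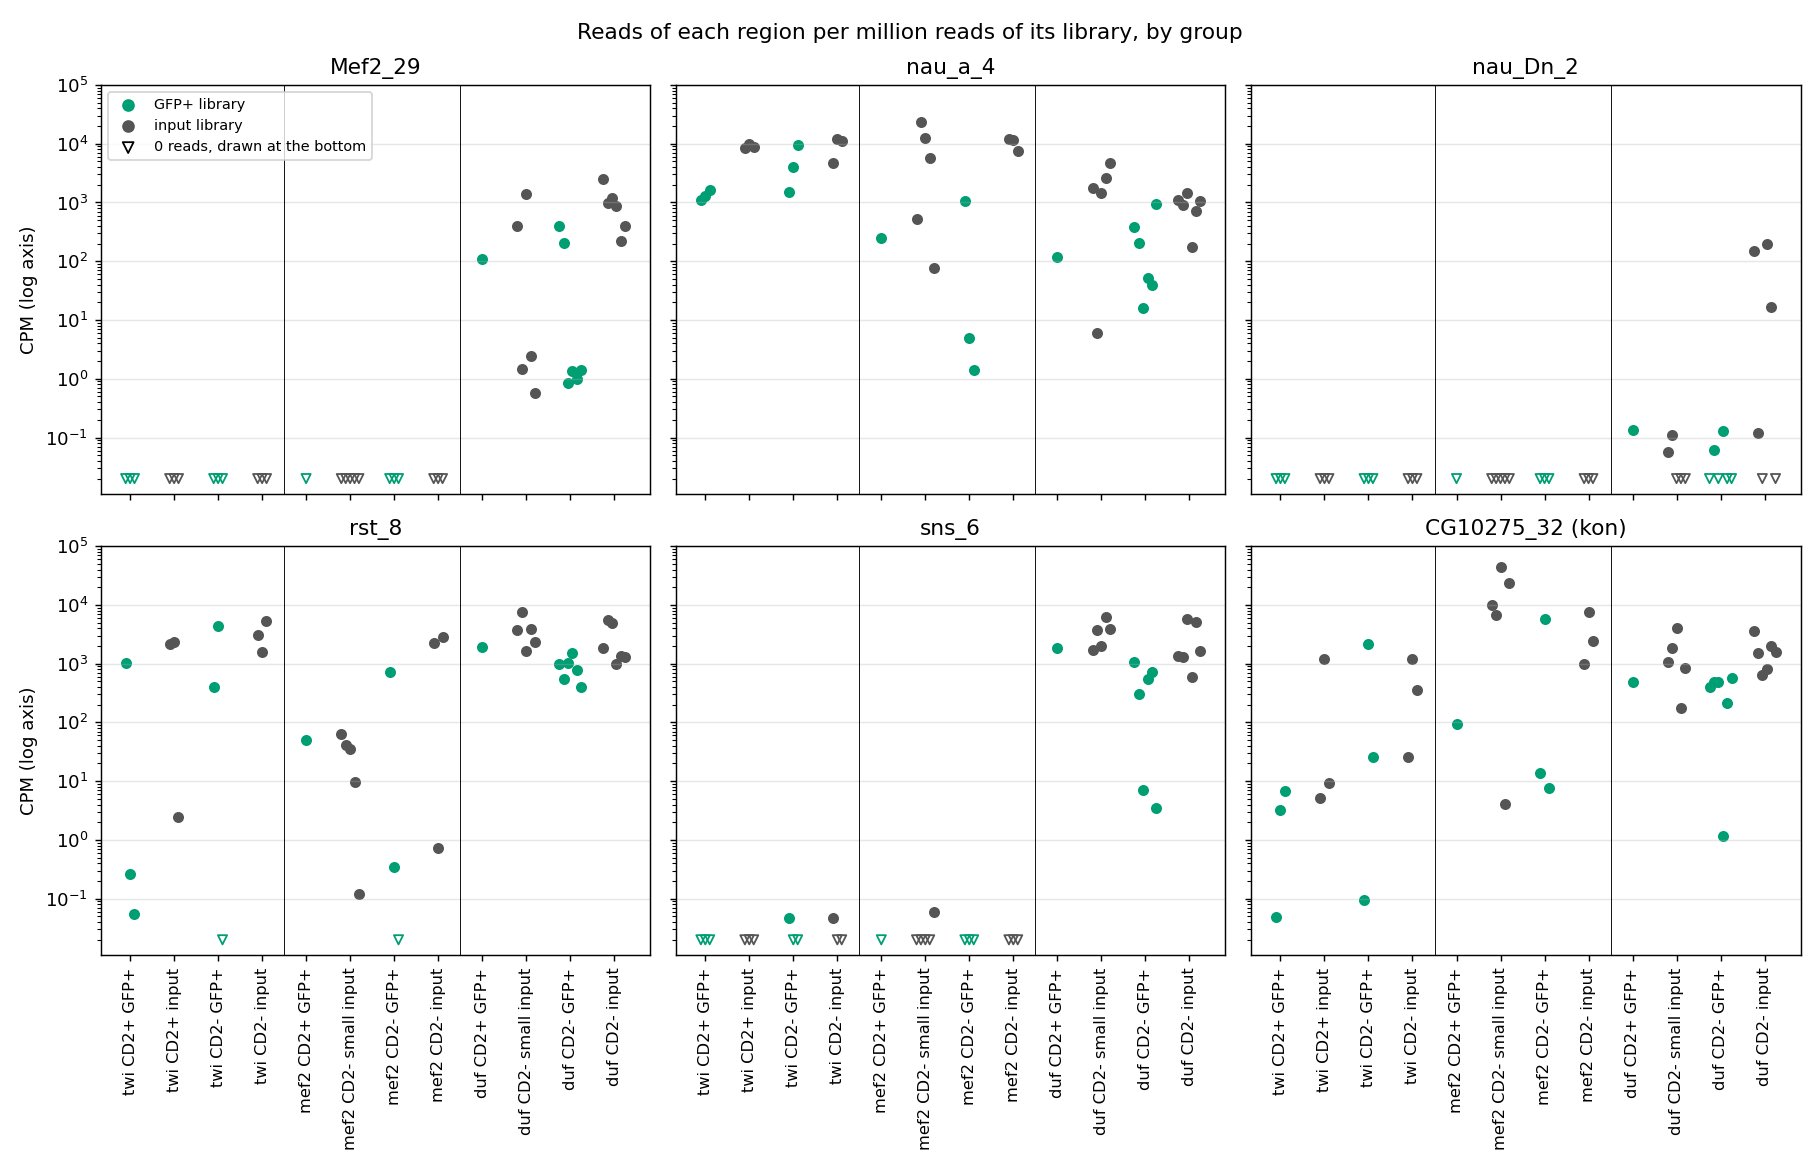
CPM of each of the 6 regions in all 42 libraries (log axis), with 1 point per library, GFP+ cells in green and inputs in grey, and libraries with 0 reads as open triangles at the bottom. Mef2_29, nau_Dn_2 and sns_6 had at most 1 read in any twi or mef2 library, while nau_a_4, rst_8 and CG10275_32 appeared with all 3 drivers.

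Mef2_29, named for the gene of the muscle differentiation factor whose name the mef2 driver also carries, was therefore not measurable in mef2-sorted cells. In duf CD2- GFP+ cells its level ran from 0.835 CPM through a median of 1.36 to 401 CPM, and in their input from 224 through a median of 928 to 2547 CPM (6 libraries each). GFP+ replicates 3 to 6 lay below 2 CPM and replicate 2 at 206 CPM was just below the lowest input, while replicate 1 at 401 CPM lay inside the input range, so the groups overlapped. The means were 102 ± 168 CPM in GFP+ cells and 1035 ± 825 CPM in input (SD, n = 6 each). The log2 change was -1.23 ± 1.54 (SE) on the TMM scale, and it did not pass edgeR's quasi-likelihood test (adjusted p = 0.929). TMM is a scaling meant to centre the bulk of the regions. On it the median of all regions tested still ran from -2.29 in mef2 CD2+ to -0.07 in duf CD2- cells. Between libraries of the same replicate number Mef2_29 was lower in GFP+ CPM in 6 of 6 pairs, as were nau_a_4, sns_6 and CG10275_32 and 50% of all regions tested. With the replicate number as a block its log2 change was -5.28 (edgeR adjusted p = 0.195). In the single duf CD2+ GFP+ library Mef2_29 had 111 CPM (95% Wilson interval 107 to 116 CPM), against 403, 1.47, 1397, 2.43 and 0.570 CPM in the 5 small inputs. The GFP+ library lay between the inputs, and the log2 change was -1.14 ± 4.67 (edgeR adjusted p = 0.984).

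nau was represented by a pair of regions 2464 bp apart, and they differed in how many libraries held them. nau_a_4 was measurable with all drivers and was the most abundant of the 6 regions in the inputs of twi cells. In twi CD2+ GFP+ cells it had 1123, 1305 and 1647 CPM, against 8589, 9719 and 8728 CPM in the input. The GFP+ libraries lay close together and all below the input, where 41.5% of the 195 regions tested were also separated downwards. Its rank among all regions went with this, from 67 to 76 in GFP+ libraries and from 32 to 40 in input libraries. Means were 1358 ± 266 CPM in GFP+ cells and 9012 ± 616 CPM in input (SD, n = 3 each). On the TMM scale the log2 change was -1.14 ± 0.99 (edgeR adjusted p = 0.774), and with scaling by total reads it was -2.73 (adjusted p = 0.133). In twi CD2- GFP+ cells nau_a_4 had 1513, 4074 and 9482 CPM, against 4722, 11964 and 11222 CPM in the input, and the groups overlapped (log2 change 0.47 ± 1.11, edgeR adjusted p = 0.955).

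In mef2 CD2- GFP+ cells nau_a_4 had 1080, 4.89 and 1.42 CPM, against 12167, 11569 and 7433 CPM in the input. All 3 GFP+ libraries lay below all inputs, as did 41.5% of the 183 regions tested, but replicate 1 lay far above the other GFP+ libraries. The log2 change was -3.21 ± 2.28 (edgeR adjusted p = 0.489). Without GFP+ replicate 1 it was -9.96 with an adjusted p of 0.0172 by the same test, which was the only call of any of the 6 regions in any alternative tried. That fit called 12 regions higher and 9 lower of 196 tested, against 10 higher and 4 lower of 183 with all libraries. In the single mef2 CD2+ GFP+ library nau_a_4 had 252 CPM (95% Wilson interval 245 to 259), against 527, 23646, 12369, 5746 and 78.2 CPM in the small inputs. That library lay within the inputs' range (log2 change -5.12 ± 3.97, edgeR adjusted p = 0.859). In duf CD2- GFP+ cells nau_a_4 ran from 16.3 through a median of 129 to 932 CPM, and in the input from 173 through 982 to 1433 CPM (6 libraries each), with overlapping groups and a log2 change of 0.50 ± 1.09 (edgeR adjusted p = 0.938). The duf CD2+ GFP+ library had 119 CPM (95% Wilson interval 115 to 124), against 1734, 6.06, 1436, 2561 and 4636 CPM in the small inputs, a log2 change of -3.59 ± 3.29 (edgeR adjusted p = 0.797).

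nau_Dn_2, the second nau region, was seen in quantity in only 3 libraries, all of them duf CD2- inputs. In duf CD2- GFP+ cells it had 4 reads in replicate 4, 2 in replicate 2 after rounding and 0 in the others, against 3850, 3, 0, 5333, 360 and 0 reads in input replicates 1 to 6. All 6 GFP+ libraries and 3 of the 6 inputs thus held 4 reads or fewer. The 3 input libraries above it held 149, 193 and 16.3 CPM. The region did not pass the filter on low counts in this comparison, and in the fit without that filter its edgeR adjusted p was 0.0817. No fold is given, since it would rest on 3 input libraries. The duf CD2+ GFP+ library had 3 reads and the 5 small inputs together 3, at or below the floor, so no fold is given. In no GFP+ library of any driver did nau_Dn_2 exceed 4 reads.

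rst_8, named for the founder cell adhesion gene, was well above the floor in every duf library. In duf CD2- GFP+ cells it ran from 408 through a median of 883 to 1506 CPM, and in the input from 988 through 1578 to 5588 CPM (6 libraries each). The groups overlapped, although the means were 873 ± 390 CPM in GFP+ cells and 2648 ± 2019 CPM in input (SD). On the TMM scale the log2 change was 0.52 ± 0.63 (edgeR adjusted p = 0.920). Scaled by total reads it was -1.61 (adjusted p = 0.0745), so its direction depended on the scaling. The duf CD2+ GFP+ library had 1915 CPM (95% Wilson interval 1896 to 1933), against 3744, 7702, 1629, 3843 and 2313 CPM in the small inputs, a log2 change of -0.47 ± 1.32 (edgeR adjusted p = 0.984).

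With twi and mef2, rst_8 was high in some libraries and at or near 0 in others. In twi CD2+ GFP+ cells it had 1031, 0.260 and 0.0555 CPM, the last 2 from 6 reads and 1 read, against 2173, 2357 and 2.43 CPM in the input. In twi CD2- GFP+ cells it had 394, 4336 and 0 CPM, against 3069, 1571 and 5317 CPM in the input. In mef2 CD2- GFP+ cells it had 707, 0.350 and 0 CPM, the second from 7 reads, against 2253, 0.724 and 2786 CPM in the input. Each of these comparisons had overlapping groups. Replicate 3 was the lowest library in both twi CD2+ groups, and replicate 2 of the mef2 CD2- cells was nearly devoid of rst_8 in GFP+ cells and input alike, while mef2 GFP+ replicate 3 had no read beside an input of 2786 CPM. Log2 changes were -0.52 ± 3.14 (twi CD2+), 0.22 ± 2.60 (twi CD2-) and -1.21 ± 3.35 (mef2 CD2-), with edgeR adjusted p of 0.958, 0.995 and 0.958. The single mef2 CD2+ GFP+ library had 50.2 CPM (95% Wilson interval 47.2 to 53.4), inside the small inputs' values of 63.5, 41.2, 35.5, 9.65 and 0.119 CPM, with a log2 change of 0.65 ± 2.49 (edgeR adjusted p = 0.971).

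sns_6, named for the adhesion gene of fusion-competent myoblasts, could be compared in duf cells only. In duf CD2- GFP+ cells it ran from 3.53 through a median of 423 to 1055 CPM, and in the input from 597 through 1506 to 5711 CPM (6 libraries each). GFP+ replicates 3 and 6 had 6.94 and 3.53 CPM and stood far below the rest, and the groups overlapped. Means were 439 ± 416 CPM in GFP+ cells and 2631 ± 2214 CPM in input (SD), and the log2 change on the TMM scale was -0.55 ± 1.08 (edgeR adjusted p = 0.938). The duf CD2+ GFP+ library had 1848 CPM (95% Wilson interval 1830 to 1866), against 1686, 3743, 1961, 6239 and 3896 CPM in the small inputs. It lay just above the lowest of them, with a log2 change of -0.41 ± 1.35 (edgeR adjusted p = 0.984). rst_8 and sns_6 thus had close levels in that GFP+ library, at ranks 122 and 128 among all regions.

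CG10275_32, named for kon, the gene of myotube attachment, ran from 0.0481 to 43891 CPM over all libraries. In twi CD2+ GFP+ cells it had 0.0481, 3.26 and 6.77 CPM, against 5.18, 1223 and 9.22 CPM in the input, and the first GFP+ value is 1 read. Only input replicate 2 was high, and GFP+ replicate 3 lay above input replicate 1. In twi CD2- GFP+ cells it had 0.0944, 2159 and 25.5 CPM, against 25.9, 1218 and 353 CPM in the input. In mef2 CD2- GFP+ cells it had 13.6, 5652 and 7.68 CPM, against 969, 7489 and 2388 CPM in the input. In twi CD2- and mef2 CD2- cells replicate 2 was the highest library in GFP+ cells and in input, and the groups overlapped in all 3 comparisons. Log2 changes were -5.47 ± 3.45 (twi CD2+), 1.83 ± 2.90 (twi CD2-) and 0.76 ± 2.29 (mef2 CD2-), with edgeR adjusted p of 0.617, 0.908 and 0.958. With the replicate number as a block the change in twi CD2- cells was -2.38 (edgeR adjusted p = 0.850), so its direction depended on whether libraries were paired by number.

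In the small mef2 inputs CG10275_32 reached 43891 CPM in replicate 3, where it ranked 5 among all regions. The other small inputs had 9901, 6831, 4.10 and 23570 CPM, and the mef2 CD2+ GFP+ library had 93.7 CPM (95% Wilson interval 89.6 to 98.0). The GFP+ library lay below 4 of the 5 inputs and above replicate 4, and the log2 change was -7.44 ± 3.78 (edgeR adjusted p = 0.774). In duf CD2- GFP+ cells CG10275_32 ran from 1.17 through a median of 447 to 565 CPM, and in the input from 629 through 1564 to 3552 CPM (6 libraries each). Here every GFP+ library lay below every input, as for 22.2% of the 400 regions tested. Means were 361 ± 214 CPM in GFP+ cells and 1687 ± 1045 CPM in input (SD), while the log2 change on the TMM scale was -0.10 ± 0.99 (edgeR adjusted p = 0.977) and with scaling by total reads -2.23 (adjusted p = 0.104). The duf CD2+ GFP+ library had 483 CPM (95% Wilson interval 474 to 492), against 1077, 1877, 4025, 175 and 849 CPM in the small inputs, a log2 change of -1.17 ± 2.45 (edgeR adjusted p = 0.984).

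**Figure D2:**
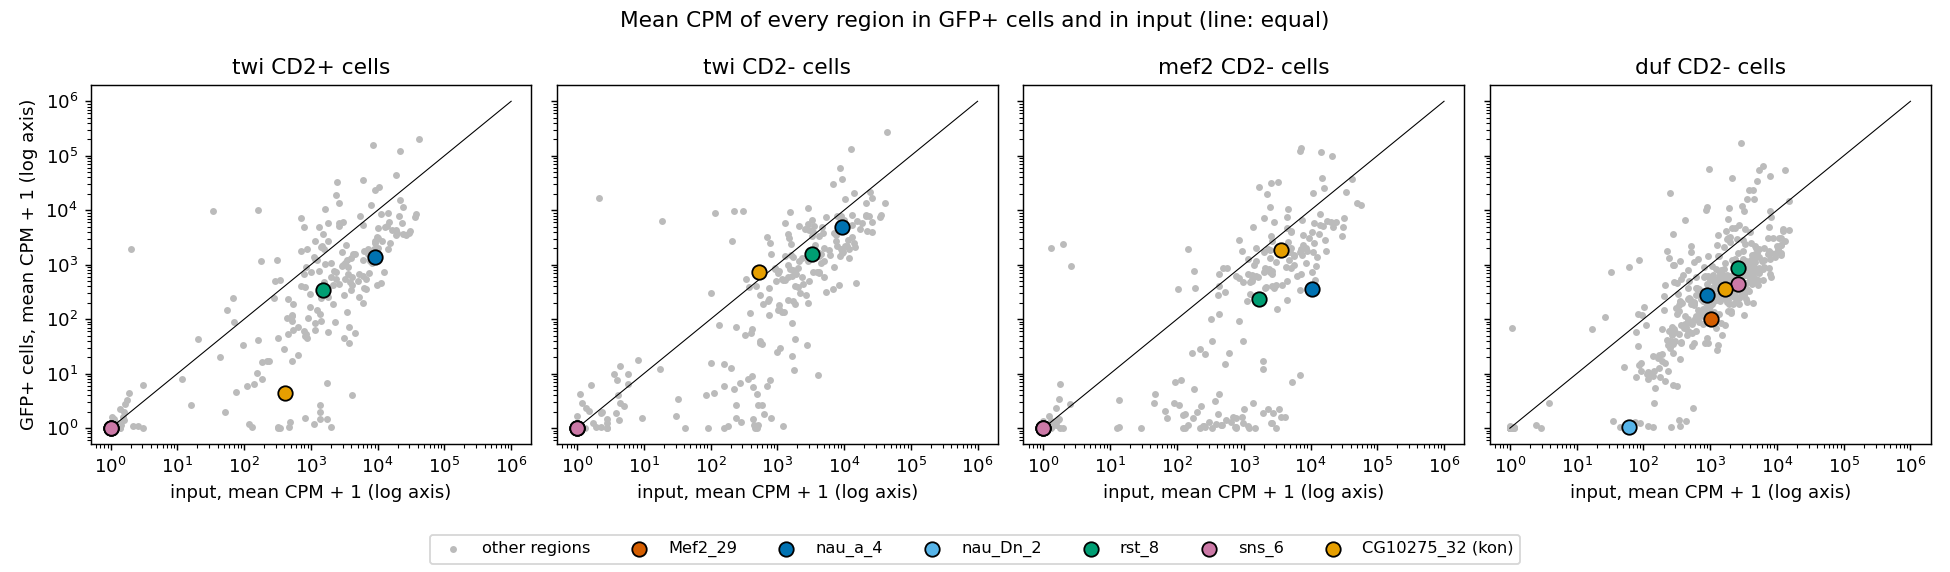
Mean CPM plus 1 of every region in GFP+ cells (vertical) against input (horizontal), both on log axes, for the 4 comparisons with replicated GFP+ libraries. Coloured points are the 6 regions, grey points the others, and the line marks equal CPM. nau_a_4 and rst_8 lie below the line in all 4 panels and CG10275_32 in all but twi CD2- cells. Mef2_29, sns_6 and nau_Dn_2 lie below it in duf CD2- cells and overlap at the lower left corner, with 0 or nearly 0 CPM on both sides, in the other panels.

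The question of the design was which regions are enriched in GFP+ cells of each population. None of the 6 regions passed edgeR's quasi-likelihood test in any of the 6 comparisons of GFP+ cells with input. In twi CD2+ cells 0 of 3 tested were called, against 5.13% of all regions tested (10 higher and 0 lower), and in twi CD2- cells 0 of 3, against 2.94% (6 higher and 0 lower). In mef2 CD2+ cells it was 0 of 3, against 0% of 230 (1 region with another handling of doubly listed regions), with 16 regions at an unadjusted p under 0.05 and 0 calls by DESeq2. In mef2 CD2- cells it was 0 of 3, against 7.65% (5.46% higher and 2.19% lower). In duf CD2+ cells 0 of 5 were called, against 0.235%, and in duf CD2- cells 0 of 5, against 13% (11.8% higher and 1.25% lower). Over these 22 tests 0 had an unadjusted p under 0.05, and DESeq2 called 0 of the 6 regions, giving no adjusted p in 4 of the tests. Shares of all regions this low leave a count of 0 among 3 to 5 regions near the background. Standard errors ran from 0.63 for rst_8 in duf CD2- cells to 4.67 for Mef2_29 in duf CD2+ cells.

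In CPM, none of the 6 regions lay wholly above its input in a comparison where it was tested. The share of all regions tested was 6.67% (CD2+) and 3.43% (CD2-) for twi, 13% and 8.74% for mef2, and 12.2% and 4% for duf. nau_Dn_2, not tested in duf CD2+ cells, had 0.137 CPM in that GFP+ library, at the floor of 3 reads. Its small inputs reached 0.109 CPM. Besides the 3 separations downwards given above, none of the 6 lay wholly below its input. For the populations without one the share over all regions was 38.2% (twi CD2-), 12.2% (mef2 CD2+) and 24.7% (duf CD2+).

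Log2 changes lay below 0 in 15 of the 22 tests and above it in 7. Over all regions tested, the share below 0 ran from 51.25% in duf CD2- to 67.8% in mef2 CD2+ cells. The 22 tests also repeat the same regions and are not independent. For twi the median of the members was -1.14 in CD2+ cells (all regions tested -0.51) and 0.47 in CD2- cells (all -0.29). For mef2 it was -5.12 in CD2+ cells (all -2.29) and -1.21 in CD2- cells (all -0.40), and for duf -1.14 in CD2+ cells (all -0.72) and -0.10 in CD2- cells (all -0.07). By mean CPM the members were lower in GFP+ cells in 20 of the 22 tests, and so were between 67.8% and 84% of all regions tested in each comparison. Scaling by total reads in place of TMM moved the median region by -1.61 (CD2+) and -1.30 (CD2-) for twi, by 0.04 and -1.59 for mef2 and by -0.53 and -2.08 for duf. Calls over all regions on that scale were 6 higher and 4 lower for twi CD2+ and 5 and 1 for twi CD2-, 2 and 0 for mef2 CD2+ and 7 and 16 for mef2 CD2-, and 0 and 0 for duf CD2+ and 22 and 95 for duf CD2- cells. None of the 6 regions was called on that scale either, with the lowest adjusted p at 0.0745 for rst_8 in duf CD2- cells.

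**Figure D3:**
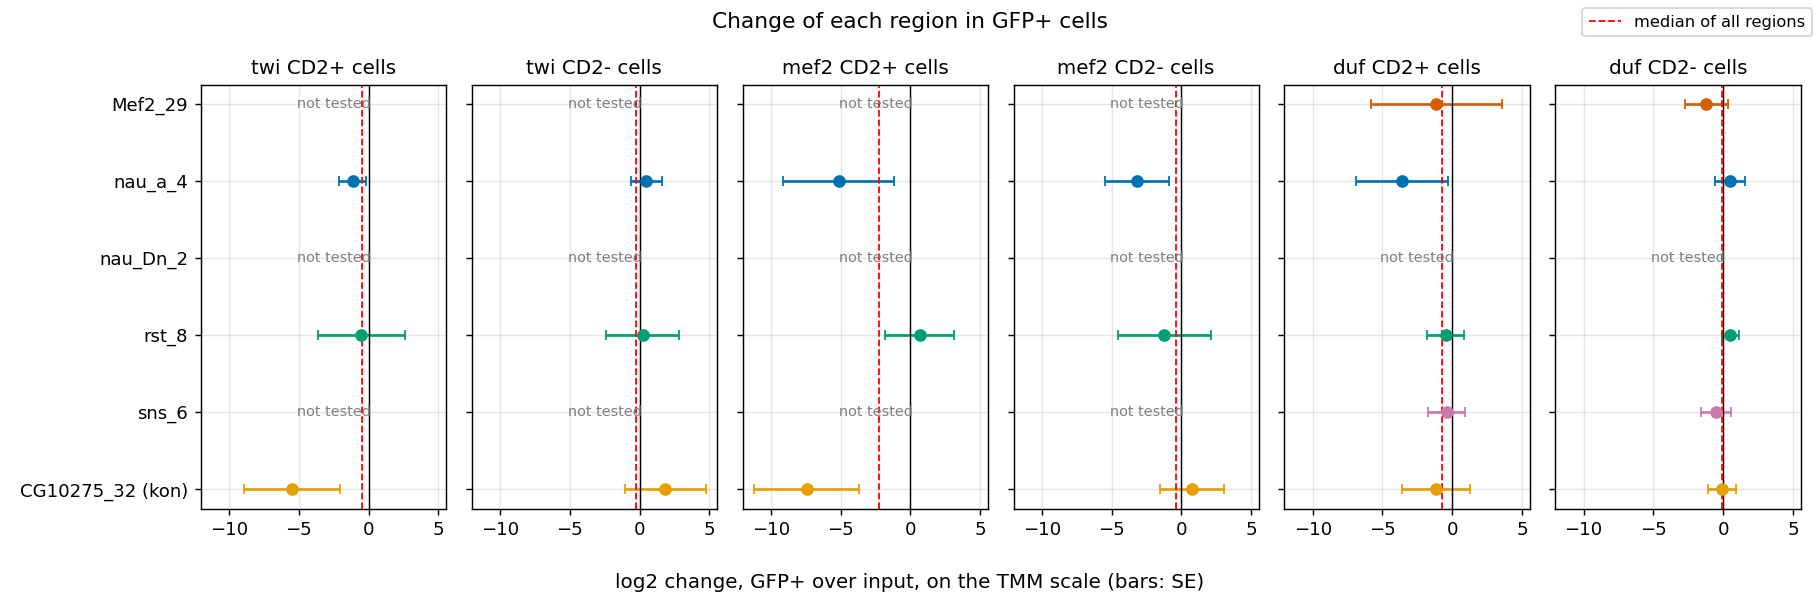
Log2 change of each region in GFP+ cells over input on the TMM scale (points, with SE as bars), in each of the 6 comparisons, with the median of all regions tested as a dashed red line. Regions marked as not tested had too few reads for the filter, and the SE runs from 0.63 for rst_8 in duf CD2- cells to 4.67 for Mef2_29 in duf CD2+ cells.

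Sequencing lanes are given for duf libraries only. Lanes 1 and 8 held both GFP+ cells and input of duf CD2- cells. In lane 1 GFP+ replicate 4 had 1.34 CPM of Mef2_29 against 2547 in input, 52.3 of nau_a_4 against 1114, 1506 of rst_8 against 1827, 545 of sns_6 against 1343 and 1.17 of CG10275_32 against 3552. In lane 8 GFP+ replicate 1 had 401 CPM of Mef2_29 against a mean of 311 in 2 inputs, 383 of nau_a_4 against 892, 976 of rst_8 against 1323, 1055 of sns_6 against 3425 and 407 of CG10275_32 against 1796. The 5 regions were lower in GFP+ CPM in both lanes, apart from Mef2_29 in lane 8. By mean CPM over all libraries of this comparison, 84% of all regions tested were lower in GFP+ cells too. The share of all regions within a lane was not worked out, so the directions within a lane cannot be read as particular to the 5 regions. With lane as a block the log2 changes on the TMM scale were 0.43, -0.36, 1.70, 0.55 and -2.10 for these 5 regions in that order, with edgeR adjusted p of 0.596 to 0.990. These changes rest on the few libraries of lanes 1 and 8, since each other lane held GFP+ cells or input of this comparison but not both. The duf CD2+ GFP+ library shared no lane with its small inputs, so lane and group cannot be told apart there.

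The enrichment of a driver's CD2+ cells was set against that of its CD2- cells as the difference of the log2 changes, CD2+ minus CD2-, in 1 fit per driver over 4 groups. For mef2 and duf the CD2+ side was the single pooled GFP+ library against small CD2- inputs. Only the twi difference had a CD2+ input. Of the 6 regions, 0 were called for twi (3 tested, 0% of 211 regions called), 0 for mef2 (3 tested, 0.433% of 231) and 0 for duf (6 tested, 0% of 430). At an unadjusted p under 0.05 there were 21 regions for twi, 36 for mef2 and 30 for duf. Of the 6 regions only nau_Dn_2 was among these, for duf. It passed the filter on low counts in no other comparison, and here only through the large inputs, where it was high. This result therefore cannot serve as support for a difference. DESeq2 called 11 for twi and 84 for duf in either direction, and 14 higher and 9 lower for mef2. CG10275_32 had differences of -7.12 ± 4.39 for twi (edgeR adjusted p = 0.797), -8.59 ± 5.25 for mef2 (0.457) and -0.77 ± 2.28 for duf (0.971). Without twi CD2+ input replicate 2 the twi difference was -1.36, and without mef2 CD2- GFP+ replicate 2 the mef2 difference was -0.62. The duf difference was 0.50 with scaling by total reads. nau_a_4 differed by -1.71 ± 1.43 for twi, -2.15 ± 3.89 for mef2 and -3.81 ± 3.07 for duf, with adjusted p of 0.986, 0.818 and 0.794 by edgeR. Mef2_29 and sns_6 differed by 0.37 ± 3.73 and 0.48 ± 2.05 for duf, and rst_8 by -0.62 ± 4.25, 1.55 ± 4.72 and -0.67 ± 1.41 for twi, mef2 and duf. For nau_Dn_2 no difference is given, since it had 3 reads in duf CD2+ GFP+ cells, 3 in their small inputs and 6 in duf CD2- GFP+ cells, and was above the floor only in the 3 large inputs named above. It was not called in the fit (edgeR adjusted p = 0.486).

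The spread between libraries of a group set the precision of these values, and it differed between the regions. As the SD of log2(CPM + 1), nau_a_4 was steady in twi CD2+ cells, at 0.28 in GFP+ cells and 0.10 in input, where the median regions had 3.36 and 1.40. rst_8 had SDs of 5.66 and 5.41 in the same groups, wider than those of 163 of 177 regions in GFP+ cells and of 179 of 193 regions in input. In duf CD2- cells the order was different, with rst_8 at 0.67 in GFP+ cells and 1.05 in input and nau_a_4 at 2.18 and 1.09 (medians 3.03 and 1.17). Mef2_29 had SDs of 3.67 in duf CD2- GFP+ cells and 1.23 in input, sns_6 of 3.49 and 1.26, and CG10275_32 of 3.13 and 0.90. In duf CD2- cells these 3 regions, like the median region, spread more between GFP+ libraries of 36206 to 55331 cells than between inputs of 200000 cells. The difference in spread was not tested, and the part of cell number in it was not tested either.

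**Figure D4:**
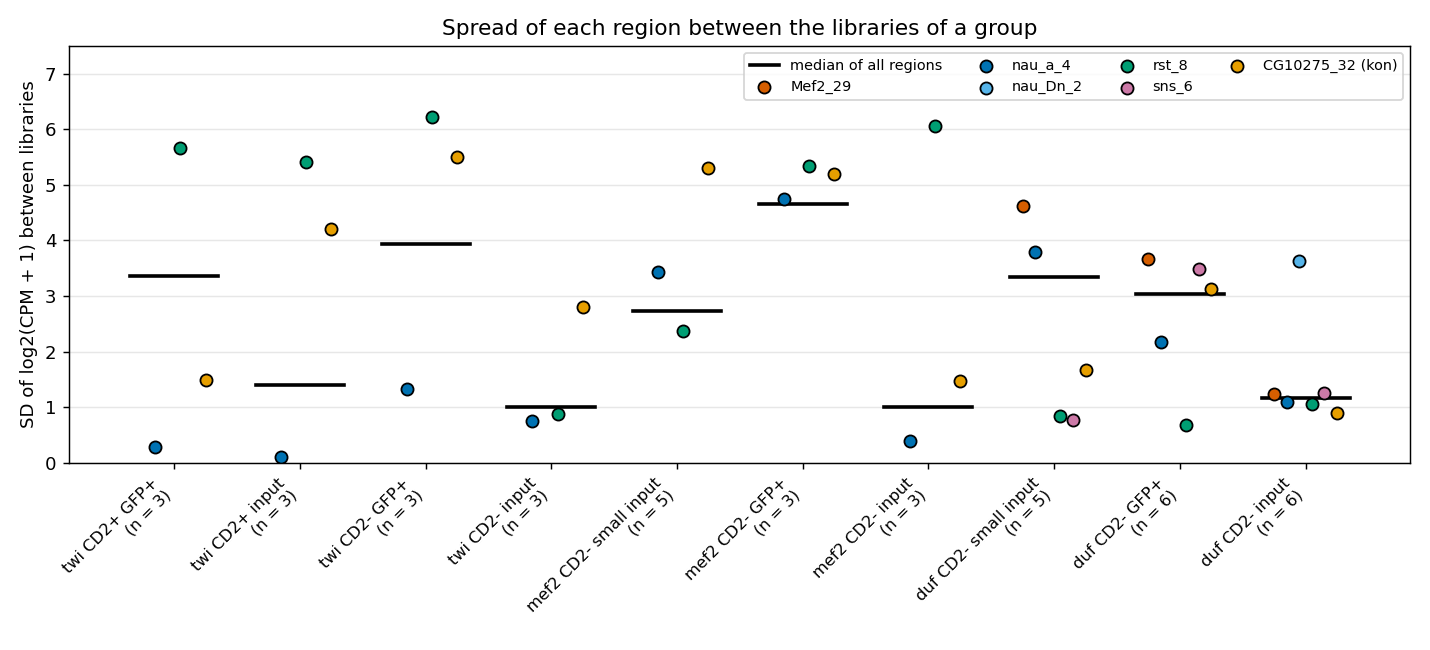
SD of log2(CPM + 1) between the libraries of each group with at least 3 libraries, for those of the 6 regions with 100 reads in some library of the group (coloured points), with the median over all such regions as a black bar. rst_8 lies at 5.35 to 6.22 in both twi CD2+ groups, in twi CD2- GFP+ cells and in mef2 CD2- GFP+ cells and their large input, at 0.88 in twi CD2- input and at 0.67 to 1.05 in the duf groups.

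Together the 6 regions took a small part of all reads, and a smaller part in GFP+ cells than in input for each population by mean. They held 0.171% ± 0.0425 in twi CD2+ GFP+ cells against 1.09% ± 0.228 in input, 0.733% ± 0.472 against 1.32% ± 0.474 in twi CD2- cells and 0.249% ± 0.289 against 1.57% ± 0.324 in mef2 CD2- cells (SD, n = 3 each). In duf CD2- cells it was 0.205% ± 0.0607 in GFP+ cells against 0.896% ± 0.359 in input (n = 6 each). The single mef2 CD2+ library held 0.0396% against 2.53% ± 1.99 in 5 small inputs, and the single duf CD2+ library 0.448% against 1.14% ± 0.189. Lower shares in GFP+ cells were common, since by mean CPM between 67.8% and 84% of all regions tested in a comparison were lower there. The smaller part is therefore not particular to the 6 regions.

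The regions whose levels followed those of the 6 most closely were found by the Pearson correlation of log2(CPM + 1) over the 12 group means, which share pools and inputs, so that r is a description only. sns_6 was most like DHS_FC_29, ChIPCRM4219 and ChIPCRM2081, each at r = 1.00, and Mef2_29 was most like DHS_FC_39, ChIPCRM6901 and ChIPCRM2841, also at r = 1.00. Both sets share the absence from twi and mef2 libraries, and sns_6 and Mef2_29 correlated with each other at 0.99. nau_a_4 was most like DHS_FCM_2 (r = 0.91), CG11202_down_1 (0.90), which is named for org-1, and ChIPCRM4514 (0.90). CG10275_32 was most like DHS_FC_1 (0.90), slou_Dn_9 (0.87) and DHS_FC_37 (0.87), and rst_8 like ChIPCRM5457 (0.89), ChIPCRM7825 (0.88) and ChIPCRM2073 (0.88). The 2 nau regions had r = -0.13, but the mean of nau_Dn_2 passed 0.137 CPM in the large duf inputs only (59.8 CPM). This r rests on 1 group mean and cannot show whether they follow each other. rst_8 and sns_6 did not follow each other closely (r = 0.48).

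Other muscle genes were represented by 34 regions of slou, org-1, H15 and mid, which encode transcription factors of muscle identity or heart and muscle patterning. Of these, 1 of 26 tested was higher in duf CD2- GFP+ cells, against 11.8% of all regions tested, and 0 were called in the other 5 comparisons. It was CG11202_down_5 of org-1, at 909 ± 909 CPM in GFP+ cells and 60.0 ± 46.6 CPM in input (SD, n = 6 each), with a log2 change of 5.98 ± 1.44 (edgeR adjusted p = 0.00840). The median log2 change of the 26 was -0.16, beside -0.07 over all regions. Muscle attachment and guidance genes had 3 regions, of Grip, mew and robo2, with 0 called. A list of cardiac and visceral mesoderm genes had 4, of Ubx, abd-A, hth and mid. In duf CD2- cells 2 of them were tested and 1 was called, where 11.8% of all regions were higher, and hth_3, named for a homeodomain factor gene, was higher in duf CD2- GFP+ cells, at 6781 ± 4680 against 1823 ± 1472 CPM (log2 change 4.01 ± 0.70, edgeR adjusted p = 0.000521). No region was named for another gene of the myoblast fusion list, kirre and hbs included, or of the nervous system and ectoderm list.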

How the data were processed

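The 42 deposited tables, 1 per library, list candidate regions with dm3 coordinates, GC content as a fraction of the region and read columns, per the file headers. The authors' total per region is an expected count, whole except in 2 to 87 regions per library, and the counts at region starts and ends are deposited beside it. No normalisation by the authors is recorded in the tables. The submitters' processing notes name CASAVA 1.8, and no mapper version is given. In 11 tables, 3 regions, none a member, stood on 2 lines with equal expected counts. These were taken as divided reads and summed. With the first line alone, an alternative chosen after seeing the data, 1 of 230 regions was called in mef2 CD2+ cells instead of 0, CG7759_33 at an edgeR adjusted p of 0.0471 instead of 0.0504, and no call of a member changed.

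Totals were rounded and tested as counts with edgeR 4.0.16 (R 4.3.3, limma 3.58.1): TMM scaling, the filterByExpr filter, the quasi-likelihood test and p-values adjusted by Benjamini-Hochberg over all regions of a comparison, at a threshold of 0.05. Where GFP+ cells had 1 library, its spread was taken to equal that of the inputs. Each SE is the size of the log2 change divided by the root of F. Alternatives were DESeq2 1.42.0, total-read scaling, no filter, start and end reads, a replicate or lane block and leaving out each library. The code was checked on simulated counts with less spread between libraries than the data. In the data the common biological coefficient of variation ran from 139% (duf CD2-) to 179% (mef2 CD2+). The check therefore cannot show whether changes of the members could be detected. Described regions were all 6 members. For the regions most like a member, the abundant region of each gene was set against 438 others with at least 100 reads in some library. Regions of the gene lists were counted if called. The rule for members uses no measured value, but the genes it names, and so the members, and the lists were chosen with earlier results of these data known. Names were matched to symbols in a RefSeq gene table (105 of 107 gene-named regions, 47 genes), built on another assembly, from which no coordinate was taken.

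No 2 libraries of a group were identical among 68 pairs. Libraries of GFP+ cells and input share replicate numbers in the labels. Their deviations from the group means had correlations of 0.144 to 0.304 for twi CD2+, of 0.212 to 0.258 for twi CD2- and of 0.198 to 0.373 for duf CD2- cells, all over 0.1, so the numbers were taken to pair these libraries. The main fits nevertheless held no block. Log2 changes, SE and adjusted p are therefore unpaired unless a block is named. The pairing entered the count of same-numbered pairs in duf CD2- cells and, among the alternatives, only the replicate block. This block turned the direction of some changes, as given below.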

Additional observations from a re-analysis of the deposited data

Results flagged for a closer look

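Mef2_29 had 1397 CPM in replicate 3 of the small duf CD2- inputs, against 403 CPM in the next highest of these 5 libraries, a gap that took 0.712 of the range of the group and passed Dixon's critical value. Among 19 groups of 5 or 6 libraries examined this was the only such value. The usual chance rate of about 1 in 20 assumes normally distributed values, while the CPM of this group ran from 0.570 to 1397. The flag is therefore a description only.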

How the results depend on the processing

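The number of the 6 regions called was 0 in all 9 tests and in the same 9 under total-read scaling, DESeq2, no filter, start and end reads and the first line of doubly listed regions. It was also 0 in the 5 tests run with the replicate block, the 1 with the lane block (duf CD2-) and the 2 with the spread of all groups of a driver (mef2 CD2+ and duf CD2+).  It ranged from 0 to 1 when a library of the mef2 CD2- comparison was left out, the 1 being nau_a_4 without GFP+ replicate 1, and was 0 for every other library left out. Of 525 log2 changes under alternatives, 487 kept their direction and stayed uncalled, and 37 turned. The cause was not tested.

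Total-read scaling turned nau_a_4 (-0.89) and rst_8 (-1.08) in twi CD2-, CG10275_32 (-0.94) in mef2 CD2-, nau_a_4 (-1.74) and rst_8 (-1.61) in duf CD2- cells and rst_8 (0.59) and CG10275_32 (0.50) in the duf difference. The replicate block turned rst_8 (-1.99) and CG10275_32 (-2.38) in twi CD2-, CG10275_32 (-3.97) in mef2 CD2- and nau_a_4 (-0.47) in duf CD2- cells, and changed no call of the 6. The lane block turned Mef2_29 (0.43), nau_a_4 (-0.36) and sns_6 (0.55), start and end reads nau_a_4 (-0.16) and DESeq2 CG10275_32 (0.063), all in duf CD2- cells.

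Leaving out single libraries turned the sign in 12 results. In twi CD2+ cells rst_8 ran from -11.32 to 0.42 and CG10275_32 from -6.06 to 0.43. In twi CD2- cells nau_a_4 ran from -0.52 to 0.85, rst_8 from -2.73 to 0.67 and CG10275_32 from -4.47 to 3.23. CG10275_32 ran from -6.67 to 1.85 in mef2 CD2- and from -0.39 to 0.16 in duf CD2- cells, nau_a_4 from -0.61 to 0.74 in duf CD2- and Mef2_29 from -1.47 to 0.65 in duf CD2+ cells. In the difference tests rst_8 ran from -11.34 to 2.48 for twi, nau_a_4 from -2.45 to 5.31 for mef2 and Mef2_29 from -0.073 to 2.17 for duf. Wide ranges of 1 sign were those of nau_a_4 (-9.96 to -2.55) and rst_8 (-11.42 to -0.46) in mef2 CD2- cells, of rst_8 (0.92 to 12.64) and CG10275_32 (-9.86 to -0.62) in the mef2 difference and of CG10275_32 (-8.27 to -1.36) in the twi difference.

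For mef2 CD2- cells, same-numbered libraries correlated at 0.0449 to 0.182, each best with its own number. The numbers were not taken as pairs there, and the block gave 7 regions higher and 0 lower of all, against 10 and 4. DESeq2 called 31 and 25 there, 13 and 11 in twi CD2+, 17 and 9 in twi CD2-, 9 and 68 in duf CD2+ and 58 and 6 in duf CD2- cells. The lane block, whose contrast rests on lanes 1 and 8 only, gave 17 and 1 in duf CD2- cells. Regions with few or no reads in several libraries limit what these data can show.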
